A study of Rattus norvegicus with 12 samples.

Results

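Hspa5 (ENSRNOG00000018294), Ddit3 (ENSRNOG00000006789) and Asns (ENSRNOG00000007546), 3 stress genes of the endoplasmic reticulum and of amino acid supply, were followed through RNA-seq of rat atrial myocytes treated with vehicle, neuregulin-1 (NRG1) or the small molecule EF-1. The 3 genes were chosen by identifier, out of 19775 in the gene table, with earlier results of these data known. All 3 were measured in every library. The gene names are those assigned to the identifiers when the genes were chosen. The deposited tables do not pair identifiers with names, and the pairing was not tested here.

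Newly made proteins fold in the endoplasmic reticulum, and an excess of unfolded protein there starts the unfolded protein response, which raises chaperones. Hspa5 (BiP) is the main Hsp70 chaperone of this compartment and a classical target of the response. The PERK arm of the same response, and separately the shortage of amino acids, lead through phosphorylation of eIF2α to the factor ATF4, which is known to raise the transcription factor Ddit3 (CHOP) and the enzyme Asns, which makes asparagine from aspartate.

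The cells were iAMs, a line made from neonatal rat atrial myocytes with a lentiviral SV40 large T antigen that is expressed only under doxycycline. Doxycycline had been withdrawn for differentiation, and after 9 days the cells received PBS (vehicle), 0.1 µM NRG1 or 32 µM EF-1 for 16 h, all with DMSO at the same concentration. Each group had 4 libraries of polyA RNA: 1 to 4 were vehicle, 5 to 8 NRG1 and 9 to 12 EF-1. NRG1 is a ligand of the receptor ERBB4, and EF-1 was selected by the study as an agonist of that receptor, so the comparisons show where the 2 treatments left the stress genes relative to vehicle and to each other. All groups came from 1 cell line, and p-values measure the spread between these libraries, which the study calls biological replicates, while the labels do not say whether they came from separate cultures. Gene totals ran from 12216228 to 27467198 estimated counts per library, and levels are given as counts-per-million (CPM) of the library total.

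Hspa5 was at its highest with NRG1, and its level with EF-1 lay around that of vehicle. The vehicle libraries 1 to 4 had 1223, 1007, 911 and 1140 CPM. With NRG1, libraries 5 to 8 had 1751, 1480, 1569 and 1523 CPM. With EF-1, libraries 9 to 12 had 1281, 1015, 747 and 944 CPM. All 4 NRG1 libraries were above every vehicle and every EF-1 library, whereas the EF-1 libraries reached both above and below the vehicle range. The group means were 1070 ± 139 CPM in vehicle, 1581 ± 119 with NRG1 and 997 ± 221 with EF-1 (SD, n = 4 each). Hspa5 rose 1.45-fold with NRG1 over vehicle, a log2 fold change of 0.53 (95% interval 0.22 to 0.84, adjusted p = 0.0125, edgeR). For EF-1 against vehicle the log2 fold change was -0.09 (95% interval -0.40 to 0.22, adjusted p = 0.675, edgeR), an interval that spans 0. With 1 library left out, this value ran from -0.20 (without EF-1 library 9) to 0.0036 (without EF-1 library 11), so its sign was not fixed. Hspa5 was lower with EF-1 than with NRG1, with a log2 fold change of -0.63 (95% interval -0.93 to -0.32, adjusted p = 0.00400, edgeR). In bulk RNA, a change in the number of cells of a type and a change in RNA per cell cannot be told apart, here and for the genes that follow.

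Ddit3 was also highest with NRG1, and the EF-1 libraries lay above the vehicle libraries. The vehicle libraries 1 to 4 had 62.9, 58.9, 59.4 and 48.6 CPM. With NRG1, libraries 5 to 8 had 142, 125, 98.7 and 123 CPM. With EF-1, libraries 9 to 12 had 73.9, 67.2, 68.7 and 114 CPM. In CPM, the NRG1 and EF-1 libraries were each all above vehicle. On the transcripts-per-million (TPM) scale, given further on, which rescales all genes of a library about alike, EF-1 and vehicle overlapped. EF-1 library 12 stood apart from the other 3 EF-1 libraries and exceeded NRG1 library 7. The means were 57.5 ± 6.15 CPM in vehicle, 122 ± 17.8 with NRG1 and 81.0 ± 22.3 with EF-1 (SD, n = 4 each). Ddit3 rose 2.08-fold with NRG1, a log2 fold change of 1.06 (95% interval 0.70 to 1.42, adjusted p = 0.000336, edgeR). With EF-1 the log2 fold change over vehicle was 0.51 (95% interval 0.15 to 0.86), and it did not pass the test (adjusted p = 0.228, edgeR). Without EF-1 library 12 this value was 0.31 (adjusted p = 0.0734, edgeR; 0.0204 to 0.523 over all other settings tried). Ddit3 was lower with EF-1 than with NRG1 (log2 fold change -0.55, 95% interval -0.91 to -0.20, adjusted p = 0.0169, edgeR). That call was lost without EF-1 library 10 (-0.48, adjusted p = 0.0552) or EF-1 library 11 (-0.50, adjusted p = 0.0504), the adjusted p of edgeR and the other tools running from 0.000499 to 0.0552 over the other settings tried, and without EF-1 library 12 the value was -0.74.

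Asns had the largest difference of the 3 genes, from 23 to 46 counts a library in vehicle to 1750 to 2995 with NRG1. The vehicle libraries 1 to 4 had 29, 23, 23 and 46 counts, which is 1.60, 0.845, 1.88 and 2.39 CPM. With NRG1, libraries 5 to 8 had 75.3, 103, 64.6 and 140 CPM. With EF-1, libraries 9 to 12 had 62, 26, 45 and 122 counts, which is 4.29, 1.89, 2.62 and 7.48 CPM. Every NRG1 library was far above all vehicle and EF-1 libraries, and the EF-1 and vehicle libraries overlapped, since EF-1 library 10 lay below vehicle library 4. Counting error alone was wide at this depth: the 95% Poisson interval, which covers counting error only, was 0.536 to 1.27 CPM in vehicle library 2 and 6.21 to 8.93 CPM in EF-1 library 12, against 135 to 145 CPM in NRG1 library 8. The means were 1.68 ± 0.644 CPM in vehicle, 95.8 ± 33.7 with NRG1 and 4.07 ± 2.48 with EF-1 (SD, n = 4 each). Asns rose 57.4-fold with NRG1 (95% interval 30.1 to 109), a log2 fold change of 5.84 (adjusted p = 8.57e-07, edgeR), the fifth highest of the 10997 genes tested. In CPM, 3 of the 4 EF-1 libraries lay above every vehicle library. On the TPM scale, which rescales all genes of a library about alike, 2 of the 4 did. With EF-1 the log2 fold change over vehicle was 1.33 (95% interval 0.39 to 2.27), and it did not pass the test (adjusted p = 0.229, edgeR). Without EF-1 library 12 it was 0.88 (adjusted p = 0.111, edgeR; 0.0227 to 0.523 over all other settings tried). Asns was lower with EF-1 than with NRG1, with a log2 fold change of -4.51 (95% interval -5.36 to -3.66, adjusted p = 3.17e-06, edgeR).

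**Figure D1:**
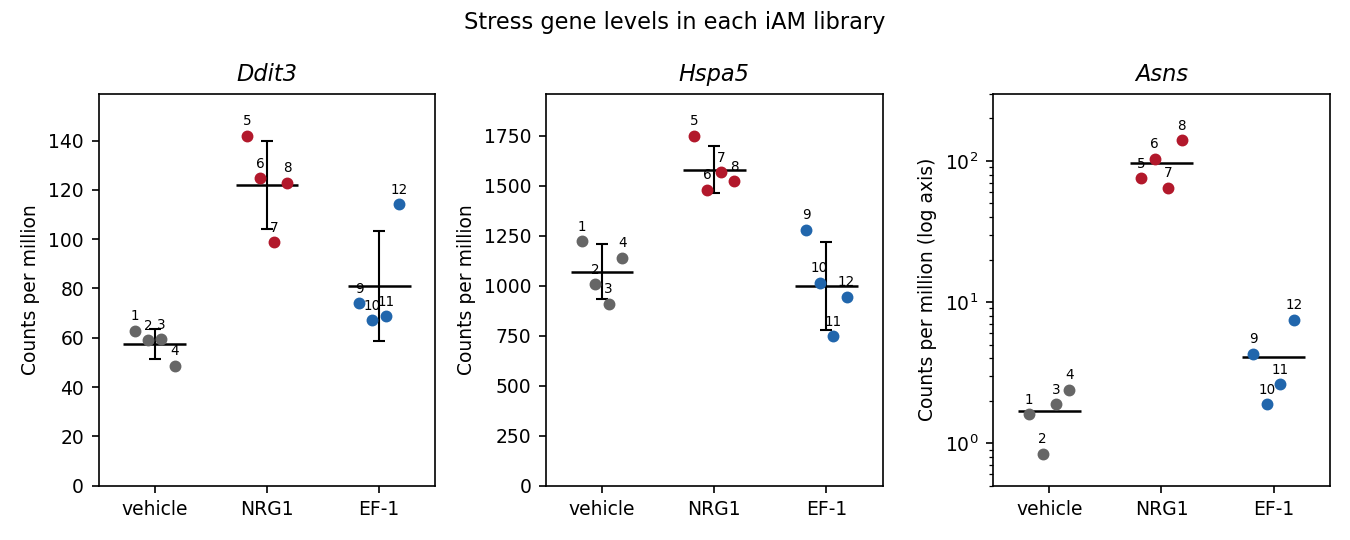
Levels in CPM of Ddit3, Hspa5 and Asns in each of the 12 iAM libraries, numbered 1 to 12, with a logarithmic axis for Asns. Lines are group means, and bars (Ddit3 and Hspa5) are the SD of 4 libraries. The 4 NRG1 libraries lie above all vehicle libraries for each gene, and EF-1 library 12 is the highest EF-1 library for Ddit3 (114 CPM) and Asns (7.48 CPM) but not for Hspa5 (944 CPM).

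Set against all genes, the response to NRG1 took in all 3 stress genes. Because the genes were chosen with earlier results of these data known, the shares of all genes are given as description only. Each of the 3 genes was higher with NRG1 at an adjusted p under 0.05 (edgeR), where 15.9% of the 10997 tested genes were. Ddit3 and Asns also reached the study's log2 fold change of 0.58, as 10.1% of all tested genes did, and Hspa5 at 0.53 was just under it. For all 3 genes the 4 NRG1 libraries lay above the 4 vehicle libraries, which held for 20.6% of tested genes. The median log2 fold change of the 3 genes was 1.06, that of Ddit3, and the median of all tested genes was -0.01. All 3 calls were kept under the other tools, scalings, filters and library sets tried.

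With EF-1 against vehicle, none of the 3 genes passed the test, and almost no gene did. Only 3 of the 10997 tested genes (0.0273%) were called in either direction by edgeR at an adjusted p under 0.05, while 2256 had an unadjusted p under 0.05. Ddit3 and Asns were among the latter, with unadjusted edgeR values of 0.00892 and 0.00928. DESeq2 called 1.60% of its tested genes and limma-voom 0, and without EF-1 library 12 edgeR called 28.9%, with Ddit3, Hspa5 and Asns still not among them. Ddit3 was the 1 gene of the 3 whose EF-1 libraries all lay above vehicle in CPM, which held for 1.88% of tested genes. On the TPM scale, which rescales all genes of a library about alike, they did not. The share of all genes was not computed on that scale. The median log2 fold change of the 3 genes was 0.51, that of Ddit3, beside -0.01 over all tested genes. The fit had no term for the sequencing run, which the study's own fit had. A further fit, chosen after seeing the data, had the first axis of the variation within groups as a covariate. In it Ddit3 (0.49, adjusted p = 0.0204, edgeR) and Asns (1.30, adjusted p = 0.0227, edgeR) passed, as did 38.7% of all tested genes in either direction. That axis held 46.8% of the within-group variation and is computed from the tested values themselves.

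Compared directly, EF-1 left all 3 genes below NRG1. Each was lower with EF-1 at an adjusted p under 0.05 (edgeR), where 21.0% of tested genes were. For Hspa5 and Asns the groups did not overlap, with all EF-1 libraries below all NRG1 libraries, as for 19.2% of tested genes. The median log2 fold change of the 3 genes was -0.63, that of Hspa5, and that of all tested genes was 0.02. The comparisons with vehicle share the same 4 vehicle libraries, so their values for a gene are not independent of each other.

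**Figure D2:**
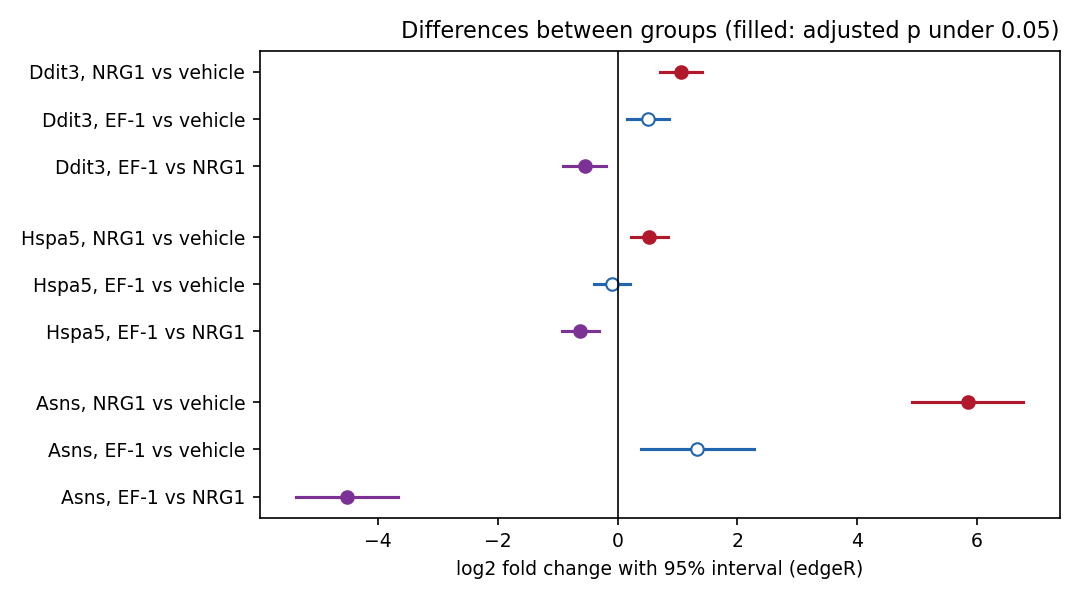
Log2 fold changes of Ddit3, Hspa5 and Asns in the 3 comparisons, with 95% intervals from edgeR (n = 4 libraries a group). Filled points passed an adjusted p of 0.05. All 3 genes pass for NRG1 against vehicle and for EF-1 against NRG1, and none passes for EF-1 against vehicle, where only the interval of Hspa5 (-0.40 to 0.22) spans 0.

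The transcripts-per-million (TPM) scale divides by transcript length as well as by library total, so that genes can be compared within a library. On it, the order of the genes was Hspa5, Ddit3, Asns in each of the 12 libraries. The deposited gene counts were themselves made from TPM scaled by transcript length. Between libraries, CPM and TPM therefore differ by about the same factor for every gene. Mean TPM of Hspa5 was 477 ± 64.9 in vehicle, 719 ± 30.2 with NRG1 and 428 ± 126 with EF-1 (SD, n = 4). Ddit3 had 91.5 ± 9.43 TPM in vehicle, 199 TPM (range 164 to 220) with NRG1 and 124 ± 41.8 TPM with EF-1. Asns had 1.08 ± 0.424 TPM in vehicle, 63.6 ± 22.7 with NRG1 and 2.59 ± 1.71 with EF-1. On this scale EF-1 and vehicle overlapped for Ddit3, with EF-1 libraries 10 (96.6 TPM) and 11 (94.2 TPM) below vehicle library 1 (100.0 TPM). For Asns, EF-1 libraries 10 (1.11 TPM) and 11 (1.47 TPM) lay below vehicle library 4 (1.56 TPM). Where these ranges differ from those in CPM, the difference comes from the library-wide factor. It shows a dependence on library scaling and says nothing about these genes in particular. The order of the genes stayed, but the distance between Ddit3 and Asns shrank with NRG1: the TPM of Ddit3 was a median of 87.7 times that of Asns in vehicle libraries (range 49.9 to 175), 3.37 times with NRG1 (2.16 to 4.65) and 53.1 times with EF-1 (37.7 to 87.3). Hspa5 exceeded Ddit3 by a median of 5.10 times in vehicle (4.28 to 6.55), 3.45 times with NRG1 (3.31 to 4.44) and 3.63 times with EF-1 (2.31 to 4.84), ranges that overlap.

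Ratios of 2 genes within a library need no scaling between libraries and were used to compare how far the genes moved. The log2 ratio of Asns to Ddit3 counts was -5.27, -6.09, -4.95 and -4.33 in vehicle libraries 1 to 4. It was -0.92, -0.27, -0.61 and 0.19 in NRG1 libraries 5 to 8, and -4.10, -5.13, -4.69 and -3.93 in EF-1 libraries 9 to 12. All NRG1 libraries lay above every other library, and EF-1 and vehicle overlapped. The difference between NRG1 and vehicle was 4.76, a 27.1-fold higher ratio (two-sided exact permutation p = 0.0286, adjusted p = 0.0643 over 9 ratio tests in all), and between EF-1 and NRG1 it was -4.06 (exact permutation p = 0.0286, adjusted p = 0.0643). The ratio of Asns to Hspa5 also separated completely, by 5.27 between NRG1 and vehicle and by -3.98 between EF-1 and NRG1 (exact permutation p = 0.0286 and adjusted p = 0.0643 for each). A p of 0.0286, or 2 of 70 assignments, is the smallest that 4 against 4 libraries allow, and after adjustment none of the 9 ratio tests passed 0.05.

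Between Ddit3 and Hspa5 the ratio was less separated. Its mean log2 value was -4.22 ± 0.265 in vehicle, -3.70 ± 0.194 with NRG1 and -3.63 ± 0.480 with EF-1 (SD, n = 4). NRG1 library 7, at -3.99, lay below vehicle library 3, at -3.94, and EF-1 ran from -4.11 in library 9 to -3.05 in library 12. The differences from vehicle were 0.51 with NRG1 (exact permutation p = 0.0571, adjusted p = 0.103) and 0.59 with EF-1 (exact permutation p = 0.0857, adjusted p = 0.110). EF-1 and NRG1 differed by 0.07 (exact permutation p = 0.714, adjusted p = 0.714), a value that turned to -0.12 without EF-1 library 12 and to -0.02 without NRG1 library 7. For EF-1 against vehicle, the log2 ratio differed by 1.29 for Asns to Hspa5 (exact permutation p = 0.0857, adjusted p = 0.110) and by 0.70 for Asns to Ddit3 (exact permutation p = 0.171, adjusted p = 0.193). The value for Asns to Ddit3 was 0.39 without vehicle library 2 and 0.98 without vehicle library 4.

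Ddit3 was quantified as a pair of transcripts, of 813 and 925 bases, and Hspa5 and Asns as 1 transcript each. The shorter Ddit3 transcript had 50.7, 41.5, 43.1 and 29.2 TPM in vehicle libraries 1 to 4. It had 105, 78.4, 86.0 and 58.4 TPM with NRG1 and 52.7, 43.8, 39.7 and 50.2 TPM with EF-1. All NRG1 libraries were above vehicle and EF-1 for this transcript, and EF-1 library 12 lay among the other EF-1 libraries. The longer transcript had 49.2, 53.7, 49.7 and 48.9 TPM in vehicle, 115, 133, 77.6 and 141 TPM with NRG1 and from 52.8 to 134 TPM with EF-1. The high Ddit3 level of EF-1 library 12 thus lay in the longer transcript, at 134 TPM. The shorter transcript made up 37.4 to 50.7% of Ddit3 TPM in vehicle, 29.2 to 52.6% with NRG1 and 27.3 to 45.3% with EF-1, ranges that overlap. The split between transcripts is the quantifier's estimate from shared sequence and carries its uncertainty, and it was not put to a test.

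**Figure D3:**
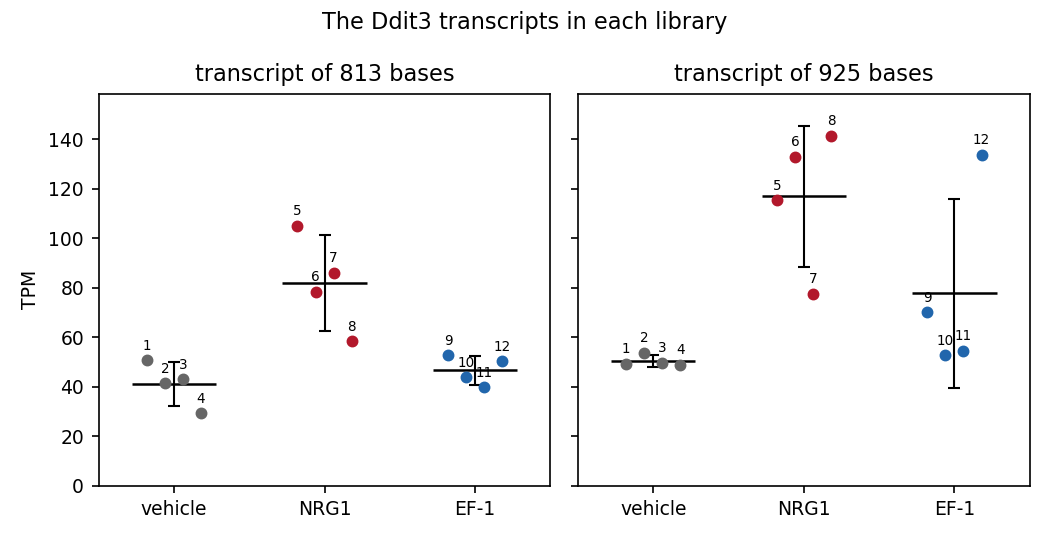
TPM of the Ddit3 transcripts of 813 and 925 bases in each of the 12 iAM libraries, numbered 1 to 12, with lines for group means and bars for the SD of 4 libraries. EF-1 library 12 has 50.2 TPM of the shorter transcript, within the range of the other EF-1 libraries, and 134 TPM of the longer, above all of them.

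The spread of reads over short and long transcripts was uneven among the EF-1 libraries. Relative to the mean of all libraries, log2 reads changed by -0.108, -0.308 and -0.229 for each doubling of length over 12239 transcripts in EF-1 libraries 9, 10 and 11, and by 0.119 in EF-1 library 12. The slopes ran from -0.0905 to 0.180 in vehicle and from -0.0412 to 0.160 in NRG1 libraries, so that EF-1 library 12 lay within both ranges and the other 3 EF-1 libraries lay below them. Across the 12 libraries, with each group's mean removed, the correlation of this slope with log2 CPM was 0.42 for Ddit3 (permutation p = 0.329, adjusted p = 0.657; rho = 0.13, permutation p = 0.707), 0.56 for Asns (permutation p = 0.144, adjusted p = 0.631; rho = 0.50, permutation p = 0.160) and -0.07 for Hspa5 (permutation p = 0.894, adjusted p = 0.902; rho = -0.31, permutation p = 0.413). Without EF-1 libraries 10 and 12, which were farthest from the median of the slopes once group means were removed, r was -0.37 for Ddit3, 0.10 for Asns and 0.01 for Hspa5.

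The 3 genes did not vary together detectably from library to library within groups. With group means removed, Asns and Ddit3 had r = 0.49 over the 12 libraries (permutation p = 0.210, adjusted p = 0.631; rho = 0.29, permutation p = 0.411), and r = 0.53 without EF-1 library 10 and vehicle library 2. EF-1 library 12, the highest EF-1 library for both genes, stayed in that set, and r without it was not computed. Ddit3 and Hspa5 had r = 0.04 (permutation p = 0.902, adjusted p = 0.902; rho = -0.05, permutation p = 0.889), and r = 0.24 without EF-1 library 12 and NRG1 library 7. Asns and Hspa5 had r = 0.12 (permutation p = 0.802, adjusted p = 0.902; rho = 0.08, permutation p = 0.846), and r = 0.14 without EF-1 library 10 and vehicle library 2. With the slopes, 6 relations were computed, each over 13824 permutations within groups.

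Over all 12 libraries, which includes the differences between groups, the genes differed in how many others followed their pattern. Among 10994 other tested genes, 397 had a correlation of at least 0.9 with Asns in log2 CPM, 121 with Hspa5 and 2 with Ddit3. The closest to Asns was ENSRNOG00000014387 (r = 0.99), whose log2 fold change over vehicle was 4.92 with NRG1 (adjusted p = 5.45e-07, edgeR) and 1.15 with EF-1 (adjusted p = 0.225, edgeR). The closest to Hspa5 was ENSRNOG00000010298 (r = 0.98), at 0.57 with NRG1 (adjusted p = 0.00787, edgeR) and -0.12 with EF-1 (adjusted p = 0.567, edgeR). The gene closest to Ddit3 (r = 0.93), not named here, was at 4.29 with NRG1 (adjusted p = 1.78e-07, edgeR) and at 1.77 with EF-1 (adjusted p = 0.0291, edgeR), and was 1 of the 3 genes called for EF-1 against vehicle. These correlations are descriptions and carry no p, since differences between the 3 groups enter them.

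Because all 3 genes rose with NRG1, the 250 bases before the start of each were read from RefSeq promoters (GRCr8, a later build than the Rnor_6.0 used for the counts), and all 3 were matched there by symbol. The endoplasmic reticulum stress element was searched as CCAAT and CCACG with any 9 bases between them, the ATF4-type composite element as TGATGNAA and the cAMP-responsive core as TGACGT, each on both strands. Hspa5 held the stress element at -43 to -25 from the start, which 22 of 33469 promoters (0.0657%) held, and TGACGT at -135 to -130, which 6.95% held. Ddit3 and Asns held no exact match to either in this window, and none of the 3 held an exact TGATGNAA, found in 3.40% of promoters. Ddit3 held CCAAT at -76 to -72 on the minus strand, followed on that strand after 9 bases by GCACG in place of CCACG. Only exact matches were counted, so variant elements and sites outside the 250 bases would be missed. An absence here therefore does not show that a gene lacks such an element. The sequences lie at chr3:38452766-38453015 on the plus strand (Hspa5), chr7:65001445-65001694 on the plus strand (Ddit3) and chr4:36769416-36769665 on the minus strand (Asns). They are written 5′ to 3′ and end at the base before the start, and capitals mark the stress element and TGACGT.
Hspa5 promoter: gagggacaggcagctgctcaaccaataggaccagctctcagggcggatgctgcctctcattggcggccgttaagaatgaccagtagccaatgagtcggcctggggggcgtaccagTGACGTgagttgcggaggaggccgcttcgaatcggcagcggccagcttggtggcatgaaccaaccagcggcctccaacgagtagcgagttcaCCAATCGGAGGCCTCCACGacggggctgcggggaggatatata
Ddit3 promoter: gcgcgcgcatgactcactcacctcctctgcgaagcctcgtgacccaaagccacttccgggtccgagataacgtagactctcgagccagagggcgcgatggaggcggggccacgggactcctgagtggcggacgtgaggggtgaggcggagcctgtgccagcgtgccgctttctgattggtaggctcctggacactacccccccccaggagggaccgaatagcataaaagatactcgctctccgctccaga
Asns promoter: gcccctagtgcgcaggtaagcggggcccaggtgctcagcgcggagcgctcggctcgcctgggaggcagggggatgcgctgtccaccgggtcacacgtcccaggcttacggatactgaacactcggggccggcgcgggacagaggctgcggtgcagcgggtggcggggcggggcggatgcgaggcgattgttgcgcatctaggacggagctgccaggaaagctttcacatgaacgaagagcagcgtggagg
In Hspa5 the stress element sits close to the start, with TGACGT farther upstream. A match describes these letters only, and whether any factor bound them in these cells was not tested.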

How the data were processed

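Estimated counts per gene for 12 libraries were deposited by the authors, who quantified transcripts with Salmon on Rnor_6.0 and summed them to genes with tximport, scaled by transcript length. The authors also deposited TPM and estimated counts per transcript. Gene counts were rounded and tested with edgeR 4.0.16 (R 4.3.3; TMM, the filterByExpr filter at 10 counts, a robust quasi-likelihood fit of the 12 libraries together), with Benjamini-Hochberg adjustment over 10997 genes. A call needed an adjusted p under 0.05. The script was tested on simulated data. Within groups, every pair of libraries differed beyond counting noise (chi-square of 16.7 to 202 for each degree of freedom). The members and the lists were chosen with earlier results of these data known. Named genes were the 3 members and, for each, the tested gene of highest correlation, with at most 2 identifiers that rose printed.

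Transcripts were assigned to genes by value: the transcript, or pair, whose length-scaled TPM followed the gene's count in all libraries. The largest deviation was 1.71% for Ddit3 (next best candidate 9.36%), 1.69% for Hspa5 (10.7%) and 1.25% for Asns (58.4%). Ratios used counts plus 0.5. The length slope used transcripts of at least 500 bases with at least 50 mean reads. Alternatives were DESeq2 1.42.0, limma-voom (limma 3.58.1), library size scaling, no filter, 2 groups only, no offset and leaving out each library. The study's fit had a covariate for sequencing run. The labels used here place no library in a run, so that term could not be entered. Lists of related pathway genes and cell type markers need gene names and were not analysed here.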

Additional observations from a re-analysis of the deposited data

Results flagged for a closer look

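Of 39 groups of 4 values examined (levels, ratios, transcripts and library totals), 3 held a library whose gap to its nearest neighbour exceeded Dixon's 95% critical share of the group's range for 4 values, and chance sets a library apart in about 1 in 20 groups. Ddit3 in EF-1 library 12, at 114 CPM, lay far above the other 3 EF-1 libraries, with a gap of 0.857 of the range. The log2 ratio of Ddit3 to Hspa5 in NRG1 library 7, at -3.99, lay below those of the other 3 NRG1 libraries, with a gap of 0.852 of the range. The longer Ddit3 transcript in vehicle library 2, at 53.7 TPM, lay above the other 3 vehicle libraries, with a gap of 0.848 of a narrow range (48.9 to 53.7 TPM).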

How the results depend on the processing

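For the 9 log2 fold changes of Ddit3, Hspa5 and Asns, 150 of 153 values under the other tools, scalings, filters and library sets kept their direction and their side of the threshold. Of 81 values for the 9 ratios, without an offset or with 1 of the compared libraries left out, 79 kept their direction. None passed an adjusted p of 0.05, and since the separated ratios were already at the smallest p the design allows, that says nothing about their stability. With 1 library left out, Ddit3 for EF-1 against NRG1 ran from -0.74 to -0.48 and lost its call without EF-1 library 10 or 11. Hspa5 for EF-1 against vehicle ran from -0.20 to 0.0036, the upper value without EF-1 library 11 (adjusted p = 0.991, edgeR; 0.375 to 0.991 over these settings). The log2 ratio of Ddit3 to Hspa5 for EF-1 against NRG1 ran from -0.12 to 0.23 and was -0.02 without NRG1 library 7. The cause was not tested. Of the calls for NRG1 against vehicle, that of Hspa5 came closest to the threshold (adjusted p 0.000887 to 0.0447 over these settings, edgeR and the other tools). In the fit with the within-group axis, chosen after seeing the data, Ddit3 at 0.49 and Asns at 1.30 passed for EF-1 against vehicle, and the other 7 log2 fold changes stayed on their side. The share of tested genes called for EF-1 against vehicle was 0.0273% and ran from 0 to 28.9% over these settings, the highest without EF-1 library 12, and was 38.7% with the axis. With the axis it was 53.1% for NRG1 against vehicle (31.3% without) and 62.8% for EF-1 against NRG1 (41.8% without). No paired analysis was made because the labels do not say whether libraries of different groups belong together. Depth limits Asns in vehicle and EF-1, at 23 to 122 counts.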
